A study of Mus musculus with 15 samples.

Results

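The response of cardiac endothelium to pressure overload was followed in mice whose endothelial cells carry a deletion of STING. The comparison took every KO library of the series by its title, 4 from KO TAC hearts (mice 351, 352, 353 and 354) and 3 from KO sham hearts (mice 348, 349 and 350), which is 7 of 15 libraries. The cells were sorted from mouse hearts as CD31-positive and CD45-negative, 4 weeks after transverse aortic constriction (TAC) or sham surgery, and their RNA was sequenced. KO mice were Cad5CreERT2+/+STINGfl/fl, in which a Cre recombinase active in endothelium cuts out the loxP-flanked STING alleles. The other 8 libraries, 3 WT sham and 5 WT TAC, were from Cad5CreERT2-/-STINGfl/fl mice, so the loxP-flanked alleles were common to all 4 groups and the Cre was carried by KO mice alone. Effects of Cre itself and of the deletion therefore cannot be told apart where KO is set against WT, but both are present in KO sham and in KO TAC. The labels give no sex, age, tamoxifen schedule or hour of collection, and 1 batch for all libraries. Cells of 1 mouse heart were 1 library. In the fit as reported, p-values set the difference between surgeries against the spread between mice of a group, estimated over all 4 groups.

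STING is an adaptor in the membrane of the endoplasmic reticulum that passes on the detection of DNA in the cytosol and switches on interferon and inflammatory genes. TAC narrows the aortic arch, so the left ventricle pumps against a higher pressure, thickens and in time fails. Capillary endothelium of the heart moves fatty acids and solutes from the blood to the cardiomyocytes, and it rests on a basement membrane of collagen IV, laminins, nidogens and perlecan.

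Total counts per KO library lay between 4801095 (KO sham 350) and 12200965 (KO TAC 351). KO sham 348 had 246 genes, and KO sham 350 had 362, with no count although the remaining KO libraries predicted 10 or more; this number was 7 to 21 for each of the 5 others. The first principal component of the KO libraries (53.3% of the variance) set KO sham 350 apart and the second (25.6%) KO sham 348. The X-linked RNA Xist, which marks the silenced X of females, was at 4.36, 0.304 and 1.65 CPM in KO sham 348, 349 and 350 and 0.239, 0.2798, 0 and 0.143 CPM in KO TAC (CPM, counts scaled to 1000000 per library). The Y-linked gene Ddx3y was at 81.9, 101 and 59.4 CPM in sham and 116, 103, 113 and 131 CPM after TAC. The targeted gene, listed as Tmem173 (chr18:35733678-35740554, minus strand), was at 22.9, 31.4 and 17.3 CPM in KO sham and 30.4, 28.1, 19.6 and 29.2 CPM in KO TAC. These levels overlapped between the surgeries (log2 fold change 0.14 ± 0.16, adjusted p = 0.635) and lay below the 53.9 to 82.0 CPM of the 8 WT libraries. Values are given below in this order throughout, KO sham 348, 349 and 350 and then KO TAC 351, 352, 353 and 354, and log2 fold changes as TAC against sham ± SE with an adjusted p from edgeR's quasi-likelihood test.

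Of 12471 genes tested, 1196 passed an adjusted p of 0.05 (9.59%), with 580 higher (4.65%) and 616 lower (4.94%) after TAC. The changes were mostly small: 158 of the higher and 101 of the lower genes moved by more than 2-fold, and the median log2 fold change over all genes tested was 0.006. The 4 TAC libraries did not overlap with the 3 sham libraries for 1145 genes that were higher (9.18%) and 1049 that were lower (8.41%). The count of calls depended on single libraries: 703 genes passed without KO TAC 352 and 704 without KO TAC 353. Without KO sham 349, the sham library with the fewest unexpected zeros, 2338 genes passed, and without KO sham 348 and 350 together, which leaves 1 sham library and takes the spread from the other groups, 188 did. A fit of the 7 KO libraries alone called 378 genes and limma voom with sample quality weights, which gave KO sham 350 a weight of 0.26, called 295. Over 24 alternatives, the test against a fold of 1.5 aside, 132 genes kept their call and direction wherever they had a value, 70 higher and 62 lower. A gene without a value in a setting, as when a filter left it out, was counted as kept there. These 132 are called stable below, and for a called gene outside this set the adjusted p without KO sham 348 and 350 (p348/350), or the setting or library that ended the call, is given.

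**Figure D1:**
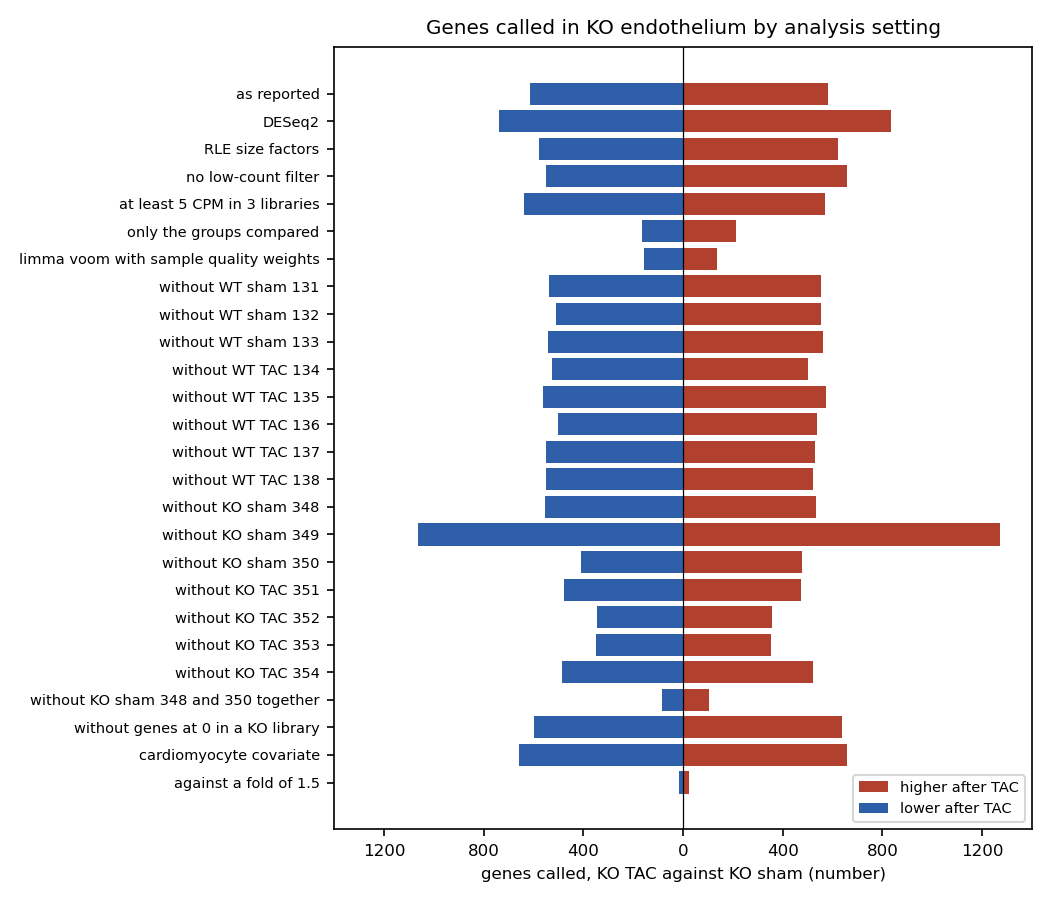
Number of genes called at an adjusted p of 0.05 in KO TAC against KO sham (horizontal axis, higher to the right and lower to the left of 0) for the fit as reported, at the top, and for each alternative. The count fell from 1196 to 188 without KO sham 348 and 350 together and rose to 2338 without KO sham 349.

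The gene lists below were written for vessels and heart, and each is described by how many of its tested members passed the test. The left-out range given with these counts holds the lowest and highest counts when 1 KO library is left out, with the mouse named where 1 or 2 of them set the limit. Each list count stands beside 4.65% of all genes tested called higher and 4.94% called lower. A list count near these shares says nothing particular about its list. Of 38 lists with a call, 34 had fewer calls in the fit of the KO libraries alone, 36 in limma voom and 35 without KO sham 348 and 350 together, while 31 had more calls without KO sham 349. Among the pathway lists with a call, the medians of the log2 fold changes farthest from 0 were 0.57 in mitosis genes (left-out range 0.33 without 350 to 0.77 without 348), 0.51 in circadian clock genes (0.23 without 354 to 0.605 without 349), 0.37 in interstitial matrix (0.24 without 349 to 0.81 without 348), 0.32 in p53 targets (0.27 without 350 to 0.39 without 349), 0.305 in basement membrane (0.24 without 349 to 0.35 without 354) and 0.29 in matrix proteases and inhibitors (0.16 without 348 to 0.300 without 350) upward. Downward they were -0.29 in capillary transport genes (-0.33 without 354 to -0.16 without 353) and -0.29 in the 7 aryl hydrocarbon receptor genes, a median that turned to 0.051 without KO sham 348. The median of all genes was 0.006. Of 39 subunits of the respiratory chain, none passed edgeR's test in KO (7 of 39 at an unadjusted p under 0.05, 1 by DESeq2 and 0 by limma voom), and 5 were called higher and 2 lower without KO sham 349.

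**Figure D2:**
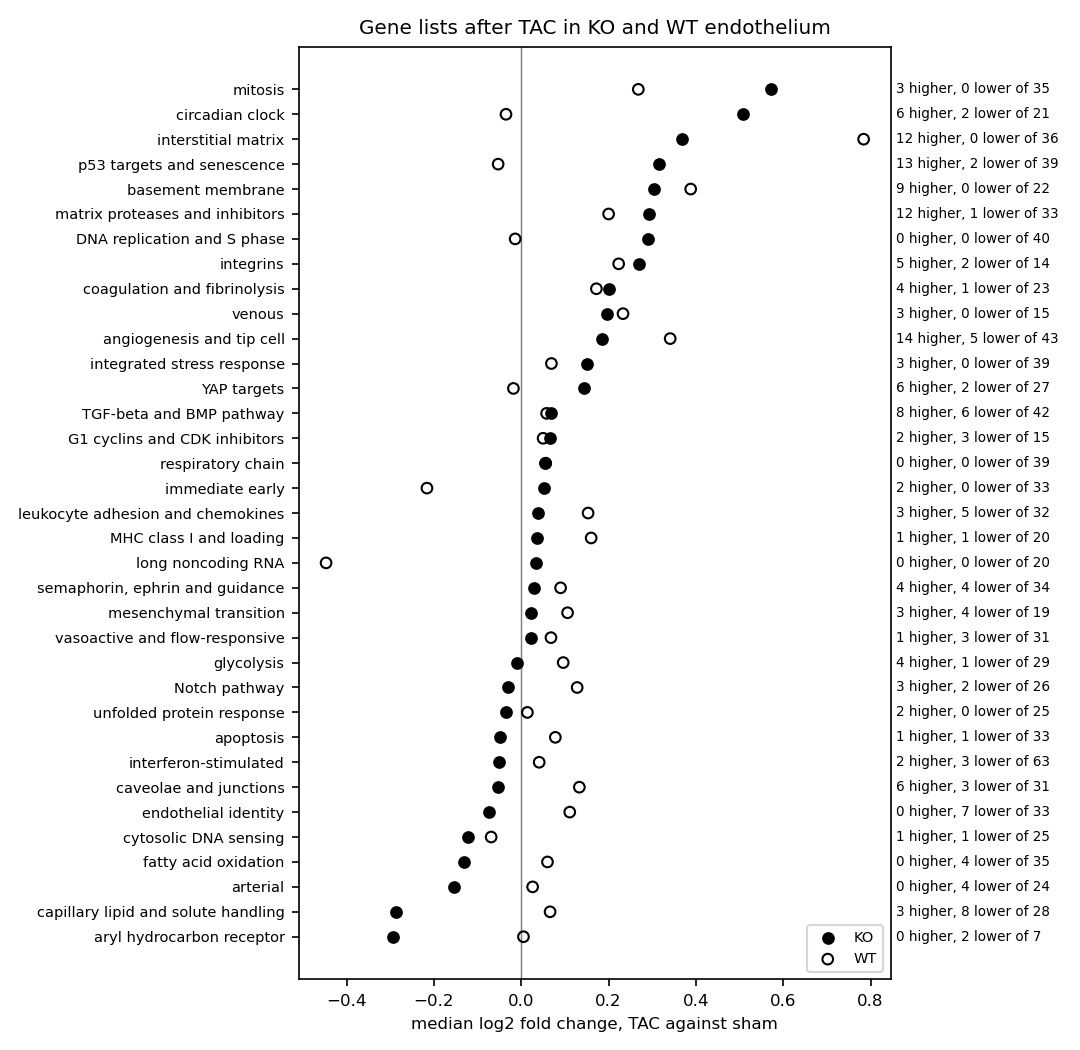
Median log2 fold change of TAC against sham over the tested members of each gene list, in KO (filled circles) and in WT (open circles), with the number of members called higher and lower in KO and the number tested at the right. Matrix, protease, p53, mitosis and clock lists lie to the right of 0 in KO, and capillary transport and aryl hydrocarbon receptor lists to the left.

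Of 22 listed genes of the basement membrane 9 were called higher and none lower (left-out range 8 without 352 or 353 to 10 higher and 0 to 2 without 350 lower, limma voom 8 and 0). These 9 encode collagens, laminin chains, a nidogen and Sparc. Collagen XV, which lies at the border of the basement membrane and the interstitial matrix, changed the most: Col15a1 (chr4:47208012-47313165, plus strand) was at 484, 435 and 243 CPM in sham and 1017, 1548, 1348 and 801 CPM after TAC, and each TAC library held more than any sham library. Its log2 fold change was 1.602 ± 0.20 (adjusted p = 3.24e-05). Col18a1, whose product collagen XVIII is the source of the fragment endostatin, was at 119, 118 and 108 CPM and 196, 235, 276 and 196 CPM (0.97 ± 0.12, adjusted p = 3.24e-05). Nid2, which links laminin to collagen IV, was at 388, 353 and 320.2 CPM and 595, 822, 699.6 and 524 CPM (0.90 ± 0.12, adjusted p = 5.37e-05). In both genes the sham and TAC libraries were separate, and KO TAC 354 was the lowest of the TAC libraries. The laminin chain gene Lamc1 followed with 0.83 ± 0.12 (adjusted p = 9.71e-05). All 4 of these genes were stable. Lama4 and the collagen-binding protein Sparc passed as well, at 0.44 ± 0.08 and 0.73 ± 0.12, but were not stable (p348/350 of 0.0876 and 0.0576). Hspg2, which encodes perlecan, was at 0.26 ± 0.08 and did not pass (adjusted p = 0.0503).

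The 2 main collagen IV chains of the basement membrane are read from neighbouring genes that start back to back. Col4a1 ends at base 11312826 of chromosome 8 in the table's mm10 annotation and Col4a2 begins at base 11312829 on the other strand, so both share 1 promoter region. Both rose: Col4a1 was at 5124, 4994 and 4327 CPM in sham and 6958, 7779, 7902 and 6094 CPM after TAC (0.58 ± 0.09, adjusted p = 0.000328), and Col4a2 was at 3146, 3232 and 2892 CPM and 4659.8, 4943, 5243 and 4171 CPM (0.62 ± 0.08, adjusted p = 6.75e-05). Libraries did not overlap for either gene, and both were stable. The region is shown from the side of Col4a1 (RefSeq, GRCm38.p6, chr8:11312777-11313076, minus strand, 250 bases before to 50 after the start), with CCAAT and CACCC boxes on either strand in capitals.
Col4a1: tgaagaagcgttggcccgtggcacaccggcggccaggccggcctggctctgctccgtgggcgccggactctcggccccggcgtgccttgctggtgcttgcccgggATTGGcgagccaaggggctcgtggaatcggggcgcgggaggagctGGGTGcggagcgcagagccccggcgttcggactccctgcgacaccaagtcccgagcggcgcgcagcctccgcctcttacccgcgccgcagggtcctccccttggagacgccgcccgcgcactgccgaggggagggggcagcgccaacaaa
The CCAAT box was present on either strand in 42.8% of the promoters of genes called higher with an entry and in 43.4% of all tested, and CACCC in 70.8% and 66.7%.

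In the interstitial matrix, the fibrous network outside the basement membrane, 12 of 36 genes were called higher and none lower (left-out range 10 without 351 or 353 to 17 without 348 higher and 0 to 1 without 349 lower, limma voom 7 and 0). Among them are glycoproteins of tissue remodelling. Tenascin C (Tnc) was at 18.4, 15.5 and 9.67 CPM in sham and 30.9, 43.5, 33.9 and 34.9 CPM after TAC (1.27 ± 0.22, adjusted p = 0.000914), and thrombospondin 1 (Thbs1), which can activate latent TGF-beta, at 30.9, 17.95 and 18.3 CPM and 45.5, 59.7, 97.7 and 46.1 CPM (1.46 ± 0.26, adjusted p = 0.00101). Every TAC library exceeded every sham library in both. Fibronectin (Fn1) was at 669, 579 and 542 CPM and 1037, 889, 962 and 938 CPM (0.68 ± 0.12, adjusted p = 0.001), and Col5a2 changed by 0.89 ± 0.15 (adjusted p = 0.000737). These 4 genes were stable. Elastin (Eln, 0.99 ± 0.18) and Ctgf (Ccn2, a matricellular protein, 0.85 ± 0.15) passed with p348/350 of 0.17 and 0.0916. The largest fold in the list was that of Cilp, at 0.335, 0.609 and 0 CPM in sham and 4.31, 11.5, 11.3 and 5.42 CPM after TAC (4.404 ± 0.61, adjusted p = 9.71e-05), a gene at or under the floor of 3 counts in KO sham 348 and 350, so that the size of its fitted fold depends on the prior count. It was also called in WT. Its call was lost in limma voom (adjusted p = 0.264).

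Cilp and Postn are also markers of fibroblasts. Postn was at 3.69, 3.75 and 1.23 CPM in sham and 10.8, 12.7, 12.3 and 4.28 CPM after TAC (1.72 ± 0.39, adjusted p = 0.00765, p348/350 of 0.205). Of 18 fibroblast markers 5 were called higher and 1, Pdgfra, lower (left-out range 3 without 353 to 9 without 348 higher and 1 lower, limma voom 1 and 0). Their median was 0.37, with a left-out range of 0.05 without 349 to 1.08 without 348. The sum of the list ran from 283 to 601 CPM in KO sham and from 424 to 604 CPM in KO TAC, and the collagen I gene Col1a1 was at 30.8, 6.09 and 9.87 CPM and 18.3, 27.6, 25.1 and 12.4 CPM, with overlap (0.41 ± 0.37, adjusted p = 0.525). The part of fibroblast RNA in the matrix changes was not tested. In sorted bulk cells, fewer cells of a type and less RNA per cell cannot be told apart, here and in the results that follow.

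Of 33 matrix proteases and their inhibitors 12 were called higher and 1, Mmp28, lower (left-out range 7 without 353 to 12 without 351 or 354 higher and 0 to 2 without 349 lower, limma voom 4 and 0). Mmp14, a membrane-bound metalloprotease that activates Mmp2, was at 20.8, 18.9 and 15.2 CPM in sham and 43.5, 55.7, 55.003 and 34.5 CPM after TAC (1.36 ± 0.17, adjusted p = 4.44e-05). The membrane protease Adam12 was at 12.8, 14.1 and 12.1 CPM and 22.8, 40.8, 36.6 and 25.95 CPM (1.27 ± 0.19, adjusted p = 0.000166). Sham and TAC libraries were separate in both genes, and both were stable. Mmp2 itself passed at 0.95 ± 0.23 with p348/350 of 0.269, and without KO TAC 353 its adjusted p was 0.0588.

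Integrins, the receptors for these matrix proteins, changed in both directions, with 5 of 14 called higher and 2 lower (left-out range 5 to 6 without 349 higher and 2 lower, limma voom 1 and 1). Itga5, the alpha chain of the main fibronectin receptor, was at 221, 241 and 256 CPM in sham and 345, 339.7, 328 and 315 CPM after TAC (0.47 ± 0.08, adjusted p = 0.000727). Itgb5 went the other way, from 34.2, 37.8 and 73.002 CPM to 26.2, 21.1, 18.2 and 20.7 CPM (-1.13 ± 0.20, adjusted p = 0.00111). Both were stable, with no overlap of libraries. Itgb3 passed at 1.06 ± 0.20 and the collagen-binding chain Itga1 at -0.39 ± 0.08, and these calls were lost in limma voom (adjusted p = 0.0776 and 0.0508), with p348/350 of 0.0488 and 0.3.

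**Figure D3:**
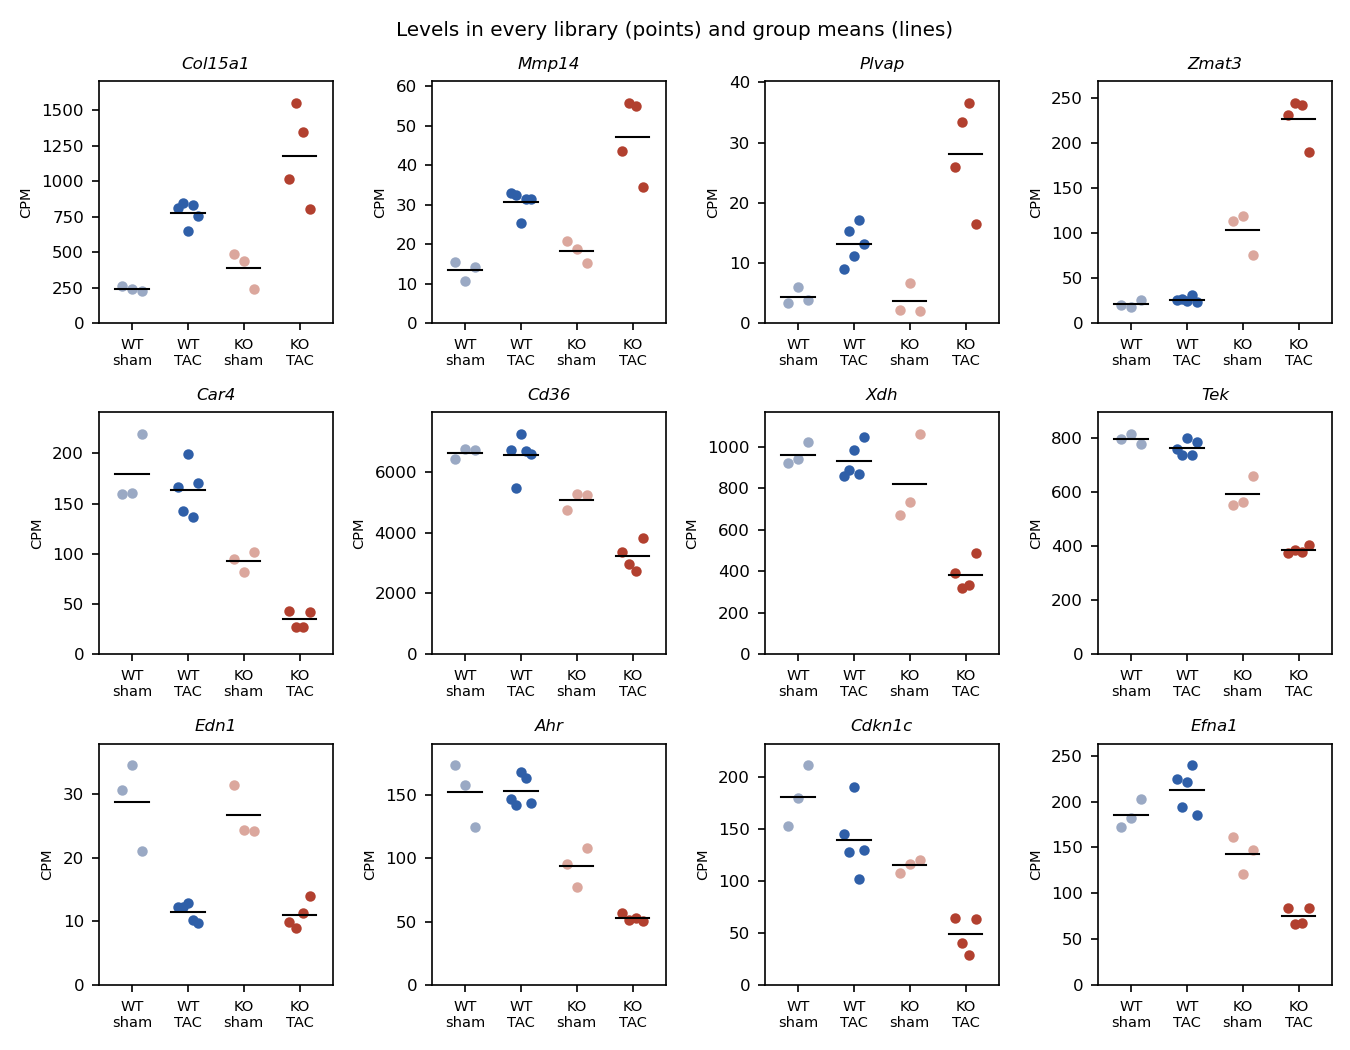
Levels (CPM, vertical axis from 0) of 12 genes in every library of the 4 groups, with 1 point a mouse and a line at the group mean. Col15a1, Mmp14, Plvap and Zmat3 lie higher in all KO TAC libraries than in any KO sham library, and Car4, Cd36, Xdh, Tek, Edn1, Ahr, Cdkn1c and Efna1 lie lower in all of them.

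Of 28 genes by which capillary endothelium handles lipids, gases and water, 8 were called lower and 3 higher (left-out range 1 to 4 without 349 higher and 7 to 11 without 354 lower, limma voom 1 and 6). Car4 (chr11:84957754-84966054, plus strand), a carbonic anhydrase anchored on the capillary surface, was at 94.5, 81.6 and 101 CPM in sham and 43.1, 26.6, 27.2 and 41.6 CPM after TAC (-1.42 ± 0.16, adjusted p = 3.24e-05). Aqp7, a channel for water and glycerol, was at 494, 519 and 595 CPM and 348, 215, 218 and 349 CPM (-0.92 ± 0.14, adjusted p = 0.000196). Cd36, the main fatty acid uptake protein of these cells, was at 4746, 5264 and 5232 CPM and 3359, 2959.7, 2731 and 3807 CPM (-0.66 ± 0.10, adjusted p = 0.000196). All TAC libraries lay below all sham libraries in these 3 stable genes, and KO TAC 352 and 353 held the lowest levels. The nucleoside transporter Slc28a2 was stable as well (-0.53 ± 0.10). The water channel Aqp1 was at 2179, 2460.1 and 3444 CPM and 1514, 959.7, 786 and 1795 CPM (-1.09 ± 0.20, adjusted p = 0.00158) and the lipase Lipe at -0.65 ± 0.11, with p348/350 of 0.0774 and 0.213. Lpl, which frees fatty acids from lipoproteins, and its anchor Gpihbp1 did not pass (-0.41 ± 0.16 and -0.34 ± 0.13, adjusted p = 0.114 and 0.0928), nor did the fatty acid carriers Fabp4 (0.03 ± 0.13, adjusted p = 0.919) and Fabp5 (0.14 ± 0.13, adjusted p = 0.541). Of the genes called higher, the acyl-CoA synthetase Slc27a3 was at 6.14, 17.04 and 12.96 CPM and 27.8, 34.2, 25.97 and 23.7 CPM (1.22 ± 0.23, p348/350 of 0.0844).

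Outside this list, 2 metabolic enzymes with a stable call moved in opposite directions. Xdh (chr17:73883908-73950182, minus strand), the xanthine dehydrogenase that makes uric acid, was at 673, 733 and 1061 CPM in sham and 393, 317, 334 and 486 CPM after TAC (-1.103 ± 0.14, adjusted p = 3.24e-05). Fasn, the fatty acid synthase, was at 26.03, 28.7 and 20.4 CPM and 49.6, 68.3, 55.7 and 45.3 CPM (1.12 ± 0.17, adjusted p = 0.000322). Of 35 genes of fatty acid oxidation and lipid storage 4 were called lower and none higher (left-out range 0 to 2 without 348 higher and 2 without 352 or 353 to 5 without 354 lower, limma voom 0 and 1). The pyruvate dehydrogenase kinase Pdk4 was at -0.94 ± 0.22 with p348/350 of 0.173. Of 29 glycolysis genes 4 were called higher and 1 lower (left-out range 0 without 352 or 353 to 5 without 349 higher and 1 to 2 without 349 lower, limma voom 0 and 0), and the fit of the KO libraries alone called none of the 29.

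Receptors that define endothelium were affected in part. Of 33 genes of endothelial identity 7 were called lower and none higher (left-out range 0 higher and 3 without 350 to 8 without 349 lower, limma voom 0 and 3), with a median of -0.07. Tek (chr4:94739300-94874939, plus strand), the angiopoietin receptor, was at 551, 564 and 659 CPM in sham and 373, 384, 376 and 403 CPM after TAC, narrow and separate ranges (-0.62 ± 0.07, adjusted p = 3.24e-05, stable). The VEGF receptor Kdr was at 4001, 3927 and 4117 CPM and 3049, 2914, 3067 and 3008 CPM (-0.42 ± 0.07, adjusted p = 0.000734), and the transcription factor Mecom changed by -0.53 ± 0.09. Their p348/350 values were 0.0917 and 0.138. Tie1 (-0.33 ± 0.08), Eng (-0.39 ± 0.09), Flt1 (-0.33 ± 0.09) and Ptprb (-0.25 ± 0.08) also passed, and lost the call when KO sham 350 was left out (adjusted p = 0.106, 0.0891, 0.181 and 0.267). Flt1 also lost it without KO TAC 352 or 353 (0.0807 and 0.056), and Ptprb without any single KO library but 349 (0.0591 to 0.267). The adhesion molecules Cdh5 (-0.05 ± 0.07) and Pecam1 (0.00 ± 0.07), the latter being the CD31 of the sort, and the nitric oxide synthase Nos3 (-0.01 ± 0.09) did not pass (adjusted p = 0.71, 0.98 and 0.956). Klf2 and Klf4, which respond to laminar flow, did not pass either (adjusted p = 0.705 and 0.949).

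Calls in the arterial marker list were lower and those in the venous list higher, and a shift of vessel identity was not tested. Of 24 arterial genes 4 were called lower and none higher (left-out range 0 to 1 without 349 higher and 3 to 5 lower, limma voom 0 and 3). Of 15 venous genes 3 were called higher and none lower (left-out range 2 to 4 without 349 higher and 0 to 1 without 348 lower, limma voom 1 and 0). Plvap and the D cyclin Ccnd1, also a member of the G1 list, are among these 3 calls. Log2 fold changes were positive in 10 and negative in 5 of the 15 venous genes, beside 51.0% positive over all genes tested. Plvap (chr8:71497753-71511769, minus strand) encodes the diaphragm of fenestrae and caveolae and is low in capillaries of the adult heart. It was at 2.12, 6.69 and 2.06 CPM in sham and 25.9, 33.4, 36.5 and 16.4 CPM after TAC (2.87 ± 0.36, adjusted p = 3.75e-05), the largest fold among the stable genes that were called higher. Cxcl12, a chemokine of arterial endothelium, was at 2988, 2780.5 and 3144 CPM and 2068, 1752, 1984 and 2046 CPM (-0.60 ± 0.09, adjusted p = 0.000175), and the phosphatase Alpl at 125, 128 and 173 CPM and 77.6, 45.7, 52.96 and 101 CPM (-1.04 ± 0.21, adjusted p = 0.00356). Libraries were separate in all 3 genes. The p348/350 values of Cxcl12 and Alpl were 0.0584 and 0.146. The arterial Notch ligand Dll4 (-0.28 ± 0.12) and the ephrin Efnb2 (-0.17 ± 0.08) did not pass (adjusted p = 0.147 and 0.176).

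Among 43 genes of angiogenesis and tip cells, the leading cells of a sprout, 14 were called higher and 5 lower (left-out range 11 without 353 to 15 without 349 or 354 higher and 2 without 350 or 352 to 6 without 349 lower, limma voom 8 and 1). Apln, the apelin peptide of tip cells, was at 275, 357 and 218 CPM in sham and 604, 632, 613 and 458 CPM after TAC (1.02 ± 0.16, adjusted p = 0.000305), and the actin bundler Fscn1 at 426, 425 and 410.5 CPM and 591, 592, 514 and 582 CPM (0.44 ± 0.08, adjusted p = 0.00137). Both sets of libraries were separate, with p348/350 of 0.0877 and 0.0802. The tip cell marker Esm1 passed at 1.17 ± 0.29 with overlapping libraries, and its adjusted p was 0.0692, 0.0634 and 0.0511 without KO sham 348, KO TAC 352 and KO TAC 353. Besides the receptors Kdr and Flt1, the co-receptor Nrp1 was at -0.27 ± 0.08, a call that KO sham 348, KO sham 350, KO TAC 352 and KO TAC 353 each decided (0.0526 to 0.0886 when 1 was left out). Angpt2 and Vegfa did not pass (adjusted p = 0.64 and 0.91). Outside the list, the secreted glycoprotein Stc1 was at 28.5, 34.8 and 15.8 CPM and 69.5, 92.05, 87.002 and 82.6 CPM (1.61 ± 0.23, adjusted p = 0.000136) and Vash1, an endothelial angiogenesis inhibitor, at 423, 435 and 323 CPM and 656, 725, 675 and 592 CPM (0.75 ± 0.11, adjusted p = 0.000196). Egln1, the prolyl hydroxylase that marks HIF for degradation, was at 119.5, 144 and 175 CPM and 107, 88.1, 91.2 and 97.96 CPM (-0.60 ± 0.11, adjusted p = 0.00159). These 3 genes were stable. Hif1a itself passed at 0.62 ± 0.12 with p348/350 of 0.235.

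Of 39 listed p53 targets and senescence genes 13 were called higher and 2 lower (left-out range 11 to 16 without 349 higher and 0 without 353 to 2 without 348 or 349 lower, limma voom 8 and 0). In 19 of the 39 every TAC library lay above every sham library, beside 9.18% of all genes tested. Zmat3 (chr3:32334794-32365665, minus strand), an RNA-binding protein and direct p53 target, was at 113, 119 and 75.9 CPM in sham and 231, 244, 242 and 189.9 CPM after TAC (1.13 ± 0.13, adjusted p = 3.24e-05). Phlda3, an inhibitor of Akt, was at 62.8, 69.2 and 77.5 CPM and 109, 109.9, 109.6 and 103 CPM (0.63 ± 0.09, adjusted p = 0.000106), and the stress cytokine Gdf15 at 17.6, 33.5 and 31.1 CPM and 82.7, 51.6, 62.5 and 86.4 CPM (1.37 ± 0.20, adjusted p = 0.000175). These 3 genes, the adenylate kinase Ak1 (1.24 ± 0.21) and the repair nuclease Ercc5 (0.63 ± 0.12) were stable. Mdm2, the ubiquitin ligase that degrades p53, was at 85.9, 112 and 87.2 CPM and 151, 134, 151 and 164 CPM (0.65 ± 0.10, adjusted p = 0.000328), and Polk, Ccng1 and Aen passed at 0.72 ± 0.12, 0.54 ± 0.11 and 0.75 ± 0.18. Their p348/350 values were 0.0973, 0.146, 0.223 and 0.422. The mRNA of p53 itself, Trp53, was at 0.03 ± 0.11 (adjusted p = 0.907), and the pro-apoptotic target Bbc3 at 0.05 ± 0.16 (adjusted p = 0.88). Cdkn1a, the CDK inhibitor p21, was at 504, 462 and 509 CPM and 741, 698, 694 and 764 CPM, without overlap. It did not pass in the fit of all 4 groups (0.56 ± 0.22, adjusted p = 0.115), which takes the spread from KO and WT libraries together. Igfbp7 and Ddit4l made up the rest of the genes called higher with Xpc and Rps27l, and Cdkn1b and Sesn1 were the 2 called lower. In WT, Gdf15 was at 2.49 ± 0.508 CPM in sham and 1.75 ± 0.389 CPM after TAC and Phlda3 at 19.6 ± 0.902 CPM and 20.5 ± 0.454 CPM (mean ± SD, n = 3 and 5). Zmat3 was at 21.3 ± 3.88 CPM and 25.8 ± 2.99 CPM in WT, and its difference of TAC effects did not pass (0.76 ± 0.20, adjusted p = 0.08).

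Regulators of the G1 phase changed in both directions. Cdkn1c, the CDK inhibitor p57, was at 108, 117 and 119.9 CPM in sham and 63.9, 39.9, 28.8 and 63.3 CPM after TAC (-1.23 ± 0.21, adjusted p = 0.000727, stable), with the 4 TAC libraries all below the sham libraries. The D cyclins Ccnd1 and Ccnd2 were higher, Ccnd1 at 840.2, 862 and 705 CPM and 1132, 1323, 1156 and 1134 CPM (0.56 ± 0.12) and Ccnd2 at 297, 278 and 241 CPM and 363, 437, 455 and 399 CPM (0.60 ± 0.11), with adjusted p = 0.00331 and 0.00158 and p348/350 of 0.191 and 0.0715. Of 15 genes in the list 2 were called higher and 3 lower (left-out range 2 to 3 without 349 or 351 higher and 1 without 353 to 3 lower, limma voom 1 and 1). The fit of the KO libraries alone called 3 higher and 1 lower.

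Mitosis genes had positive log2 fold changes in 33 of 35 cases, beside 51.0% of all genes tested. Of these 35 genes 3 passed the test, all higher, beside 4.65% of all genes (left-out range 0 to 6 without 349 higher and 0 lower, limma voom 0 and 0). Cdk1, the kinase that drives entry into mitosis, was at 7.93, 10.3 and 6.79 CPM in sham and 13.2, 18.8, 15.8 and 14.4 CPM after TAC (0.88 ± 0.25, adjusted p = 0.0277). The spindle motor Kif11 was at 7.93, 17.04 and 9.46 CPM and 22.97, 32.5, 23.7 and 19.7 CPM (1.09 ± 0.33, adjusted p = 0.0402), and the spindle kinase Aurka at 2.46, 5.58 and 1.23 CPM and 8.93, 8.49, 5.83 and 7.41 CPM (1.24 ± 0.39, adjusted p = 0.045). Levels were low, and the sham and TAC libraries were separate in all 3. None of the 3 calls held without KO sham 348 (adjusted p = 0.0631, 0.129 and 0.115), KO sham 350 (0.0626, 0.0879 and 0.107), KO TAC 352 (0.0992, 0.133 and 0.106) or KO TAC 353 (0.0675, 0.0758 and 0.059). Kif11 and Aurka were also lost without KO TAC 351 (0.0623 and 0.104) and Aurka without KO TAC 354 (0.0682). Mki67, the proliferation marker, was at 130.5, 81.6 and 52.4 CPM and 121, 176, 135 and 126 CPM, overlapping (0.65 ± 0.30, adjusted p = 0.173). Of 40 genes of DNA replication and S phase none passed edgeR's test (5 of 40 at an unadjusted p under 0.05, 1 by DESeq2 and 0 by limma voom, and 3 by edgeR without KO sham 349). A positive log2 fold change was found in 32 of the 40, beside 51.0% of all genes tested, and the median was 0.29.

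Promoters of mitosis genes often hold the CHR element TTTGAA near CCAAT boxes, the sites by which the DREAM complex and NF-Y act on these genes in mammals. TTTGAA was found on either strand in 20 of 30 mitosis promoters with an entry and in 14.3% of all promoters of tested genes, and CCAAT in 22 of 30 and in 43.4%. The promoters of the 3 called genes are shown with both motifs in capitals (RefSeq, GRCm38.p6, Cdk1 at chr10:69352863-69353162 minus strand, Aurka at chr2:172370521-172370820 minus strand, Kif11 at chr19:37376132-37376431 plus strand).
Cdk1: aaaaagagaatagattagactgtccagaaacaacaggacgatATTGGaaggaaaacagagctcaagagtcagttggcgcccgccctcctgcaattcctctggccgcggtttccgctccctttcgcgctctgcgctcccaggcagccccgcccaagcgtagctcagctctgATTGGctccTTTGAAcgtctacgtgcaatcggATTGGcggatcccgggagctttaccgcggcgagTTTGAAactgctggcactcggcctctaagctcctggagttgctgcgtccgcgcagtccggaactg
Aurka: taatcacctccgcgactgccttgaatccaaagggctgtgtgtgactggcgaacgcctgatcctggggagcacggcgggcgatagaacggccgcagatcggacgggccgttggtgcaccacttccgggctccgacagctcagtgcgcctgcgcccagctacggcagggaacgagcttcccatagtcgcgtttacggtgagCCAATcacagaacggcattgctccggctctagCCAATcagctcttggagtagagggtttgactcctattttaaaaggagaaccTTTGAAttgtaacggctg
Kif11: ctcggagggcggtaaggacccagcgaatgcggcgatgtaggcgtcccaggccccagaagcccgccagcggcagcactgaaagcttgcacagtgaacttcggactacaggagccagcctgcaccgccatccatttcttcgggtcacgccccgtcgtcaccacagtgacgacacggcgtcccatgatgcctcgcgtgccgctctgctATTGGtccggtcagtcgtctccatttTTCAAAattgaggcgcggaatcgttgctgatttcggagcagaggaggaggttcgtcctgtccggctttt
The motifs describe the promoters, and TTTGAA was no more frequent in genes called higher (11.8%) than in all tested.

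The clock list had a median of 0.51, with 6 of 21 genes called higher and 2 lower (left-out range 2 without 348 or 354 to 6 without 349 higher and 0 without 350 or 354 to 3 without 349 lower, limma voom 0 and 0). The clock runs on the activators Clock and Arntl (BMAL1), which switch on their own repressors and a set of output factors through E-boxes. Dbp, an output factor of high amplitude, was at 1.34, 4.67 and 3.91 CPM in sham and 7.81, 6.34, 11.8 and 29.4 CPM after TAC (2.05 ± 0.51, adjusted p = 0.0131), and the related factor Tef at 22.004, 30.3 and 40.3 CPM and 52.2, 37.8, 42.6 and 85.4 CPM (0.83 ± 0.25, adjusted p = 0.0383). KO TAC 354 held the highest level of both, and Tef overlapped between the groups. The repressor Cry1 was at 0.51 ± 0.16 (adjusted p = 0.0469) and Ciart, listed as Gm129, at 2.57, 3.45 and 2.06 CPM and 7.496, 5.97, 7.77 and 6.27 CPM (1.32 ± 0.40, adjusted p = 0.0391). Bhlhe40 (0.56 ± 0.14) and the glucocorticoid-induced gene Tsc22d3 (0.90 ± 0.22) were higher, and the activator Arntl, at 76.1, 58.9 and 67.9 CPM and 50.9, 55.8, 54.8 and 32.1 CPM (-0.47 ± 0.14, adjusted p = 0.0379), and the repressor Nfil3 (-0.88 ± 0.28) were lower. Single KO libraries decided 7 of these 8 calls. Dbp was lost without mouse 348 or 354 (adjusted p = 0.0575 to 0.0576), Bhlhe40 without mouse 348 (0.0693), Tef without mouse 348, 349, 351 or 354 (0.0604 to 0.144) and Arntl without mouse 348, 350, 351 or 354 (0.0573 to 0.136). Ciart and Nfil3 were lost without any KO library but 349 (0.0558 to 0.0999 and 0.0633 to 0.143), and Cry1 without KO sham 350 or any KO TAC library (0.0595 to 0.143). The p348/350 of these 8 genes ran from 0.16 for Tsc22d3 to 0.625 for Nfil3. Per1, Nr1d1 and Per2 did not pass (adjusted p = 0.0848, 0.142 and 0.243). They too were highest in KO TAC 354, with Per2 at 19.1, 11.2, 11.6 and 44.5 CPM after TAC. The hour at which each heart was taken is not given in the labels, so time of day and surgery cannot be told apart.

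**Figure D4:**
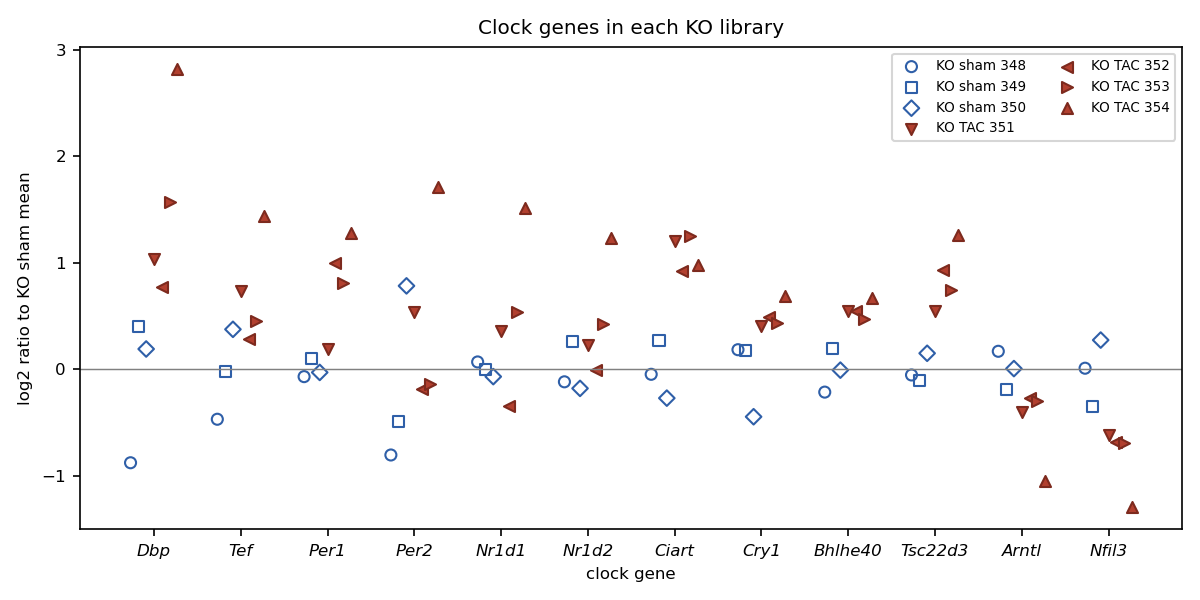
Log2 ratio of each KO library to the mean CPM of the 3 KO sham libraries (vertical axis, pseudocount of 1 CPM) for 12 clock genes, with sham libraries as open and TAC libraries as filled symbols. KO TAC 354 (upward triangles) holds the highest values of Dbp, Tef, Per1, Per2, Nr1d1 and Nr1d2 and the lowest of Arntl and Nfil3.

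E-boxes (CACGTG) lay in 4 of 17 clock promoters with an entry, those of Per1, Cry1, Tef and Ciart, and in 11.6% of all promoters of tested genes. Promoters of 3 genes called higher are shown with the E-box in capitals (RefSeq, GRCm38.p6, Ciart at chr3:95882179-95882478 minus strand, Tef at chr15:81802423-81802722 plus strand, Cry1 at chr10:85185005-85185304 minus strand).
Ciart: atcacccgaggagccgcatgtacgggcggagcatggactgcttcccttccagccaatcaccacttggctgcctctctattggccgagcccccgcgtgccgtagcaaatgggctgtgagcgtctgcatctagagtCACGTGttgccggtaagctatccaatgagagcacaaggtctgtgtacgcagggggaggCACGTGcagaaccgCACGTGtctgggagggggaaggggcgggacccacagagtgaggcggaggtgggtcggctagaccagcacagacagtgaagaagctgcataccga
Tef: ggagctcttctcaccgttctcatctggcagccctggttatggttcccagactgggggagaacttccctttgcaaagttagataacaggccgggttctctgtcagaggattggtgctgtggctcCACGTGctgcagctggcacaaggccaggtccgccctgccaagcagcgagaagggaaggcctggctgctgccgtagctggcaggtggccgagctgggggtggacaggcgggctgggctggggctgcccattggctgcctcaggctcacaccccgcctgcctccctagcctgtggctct
Cry1: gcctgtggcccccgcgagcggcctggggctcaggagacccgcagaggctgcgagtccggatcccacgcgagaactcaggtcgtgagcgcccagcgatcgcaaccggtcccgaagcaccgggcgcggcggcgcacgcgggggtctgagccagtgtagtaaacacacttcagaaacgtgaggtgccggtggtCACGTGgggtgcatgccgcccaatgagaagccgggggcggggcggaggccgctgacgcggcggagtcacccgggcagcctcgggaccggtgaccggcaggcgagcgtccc
The Ciart promoter holds 3 copies and the other two 1 each, while the promoter window of Dbp holds none.

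The aryl hydrocarbon receptor, a transcription factor that binds ligands from the environment and from metabolism, fell together with its classic target. Ahr (chr12:35497979-35534989, minus strand) was at 95.8, 77.7 and 108 CPM in sham and 56.5, 51.1, 52.7 and 50.5 CPM after TAC (-0.83 ± 0.11, adjusted p = 8.17e-05), and Cyp1a1, a monooxygenase that clears its ligands, at 3.46, 5.98 and 8.23 CPM and 0.159, 0.373, 0.102 and 0.428 CPM (-4.44 ± 0.54, adjusted p = 3.24e-05). Both were stable, with no overlap of libraries. The TAC levels of Cyp1a1 lie near the floor of 3 counts (0.239 to 0.428 CPM), where the size of a fitted fold depends on the prior count. The other 5 tested members did not pass. Tiparp was at -0.29 ± 0.23 (adjusted p = 0.452), the partner Arnt at -0.15 ± 0.10 (adjusted p = 0.387) and Cyp1b1 at 1.74 ± 0.79 (adjusted p = 0.17).

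Of 31 vasoactive and flow-responsive genes 1 was called higher and 3 lower (left-out range 0 to 3 without 350 higher and 1 to 5 without 349 lower, limma voom 0 and 1). Edn1 (chr13:42301270-42307989, plus strand), the precursor of the vasoconstrictor endothelin 1, was at 31.4, 24.4 and 24.3 CPM in sham and 9.89, 8.95, 11.2 and 13.97 CPM after TAC (-1.29 ± 0.18, adjusted p = 0.00011, stable). Its receptor Ednrb was higher at 97.1, 136 and 173 CPM and 189, 179.7, 189 and 193 CPM (0.48 ± 0.14, adjusted p = 0.0379), a call lost without KO sham 348 (adjusted p = 0.178), KO sham 349 (0.0519) or any KO TAC library (0.0623 to 0.0769). Among further stable calls on receptors for small signals, the adenosine receptor Adora2a was at 75.1, 86.6 and 121 CPM and 53.7, 42.9, 48.4 and 45.5 CPM (-0.97 ± 0.13, adjusted p = 7.94e-05) and the nucleotide receptor P2ry2 at 71.8, 85.2 and 94.4 CPM and 156, 186, 179 and 189.8 CPM (1.09 ± 0.17, adjusted p = 0.000305). The 2 receptors moved in opposite directions. The lipoxygenase Alox12 was at -1.04 ± 0.13 and the prostaglandin transporter Slco2a1 at 1.13 ± 0.19 (adjusted p = 3.24e-05 and 0.000786, both stable).

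Of 42 genes of the TGF-beta and BMP pathway 8 were called higher and 6 lower (left-out range 7 without 352 to 9 without 349 or 353 higher and 4 without 350 to 7 without 349 lower, limma voom 5 and 3). Bmp2 was at 7.04, 3.14 and 0.411 CPM in sham and 15.8, 25.2, 32.1 and 12.5 CPM after TAC (2.498 ± 0.46, adjusted p = 0.00139), and Inhbb, a subunit of activin, at 1.19 ± 0.26 (adjusted p = 0.00583). Bmp6 was at 102, 122 and 196 CPM and 83.4, 47.6, 71.4 and 86.3 CPM (-0.95 ± 0.19, adjusted p = 0.00317), Tgfb2 at -0.95 ± 0.18 and Bmp4 at -0.73 ± 0.18. Bmp2 was separate between the groups and lost its call in limma voom (adjusted p = 0.0708), and the p348/350 of the other 4 ligands were 0.0851, 0.0928, 0.191 and 0.116. Fstl1, a secreted binding protein, was at 121, 96.8 and 91.1 CPM and 162, 177, 214 and 125 CPM (0.72 ± 0.14, adjusted p = 0.00188, stable). The receptors Tgfbr3 (-0.51 ± 0.11) and Eng fell with the lower ligands (p348/350 of 0.433 and 0.482, and 0.0509 for Tgfbr3 without KO sham 348 alone). The feedback inhibitor Smad7 and the BMP target Id1 did not pass (adjusted p = 0.316 and 0.868).

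Of 19 genes of mesenchymal transition 3 were called higher and 4 lower (left-out range 2 to 6 without 348 higher and 3 to 6 without 349 lower, limma voom 2 and 2). Vimentin (Vim), an intermediate filament protein that endothelium also expresses, was at 1066, 1082 and 745 CPM and 1446, 1686, 1560.0 and 1435 CPM (0.67 ± 0.11, adjusted p = 0.000609, p348/350 of 0.0529). The smooth muscle actin Acta2 was at -0.80 ± 0.33 and did not pass (adjusted p = 0.127). Several genes of the cytoskeleton outside the lists had stable calls and were higher: the actin-binding proteins Dbn1 (29.5, 21.2 and 14.8 CPM in sham, 52.9, 75.3, 74.4 and 45.1 CPM after TAC, 1.48 ± 0.21) and Synpo (1.36 ± 0.16), the actin-capping protein Capg (1.33 ± 0.19) and the nuclear lamina protein Lmna (0.77 ± 0.09). The mechanosensitive channel Piezo2, listed as Fam38b, was at 15.9, 18.6 and 20.4 CPM and 50.4, 100.2, 79.5 and 23.2 CPM (1.81 ± 0.34, adjusted p = 0.00159), with p348/350 of 0.0795. KO TAC 354 was the TAC library nearest to sham.

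Contact and guidance molecules changed in both directions. Of 34 semaphorin, ephrin and guidance genes 4 were called higher and 4 lower (left-out range 2 without 353 to 5 without 354 higher and 2 without 348 or 352 to 5 without 349 lower, limma voom 1 and 2). Efna1 (chr3:89271730-89280951, minus strand), an ephrin ligand of endothelium, was at 161, 121 and 147 CPM in sham and 84.3, 66.5, 67.8 and 83.7 CPM after TAC (-0.92 ± 0.11, adjusted p = 3.24e-05), and Sema6a at 518, 468 and 460.2 CPM and 354, 316, 293 and 326 CPM (-0.58 ± 0.08, adjusted p = 9.37e-05). Sema3f, a repellent ligand of neuropilin 2, was at 157, 183 and 156 CPM and 269.6, 309, 322 and 313 CPM (0.87 ± 0.11, adjusted p = 3.24e-05). All 3 were stable and separate between the groups. Of 31 genes of caveolae and junctions 6 were called higher and 3 lower (left-out range 3 to 7 without 354 higher and 2 without 352 or 353 to 6 without 349 lower, limma voom 3 and 2). Jam2 (chr16:84774123-84826375, plus strand), a junctional molecule that also binds leukocytes, was at 809, 762 and 948 CPM and 569.7, 523, 465 and 536 CPM (-0.68 ± 0.09, adjusted p = 4.55e-05, stable). The tight junction scaffold Tjp1 was at -0.41 ± 0.07 (p348/350 of 0.173), and Cldn5 did not pass (-0.19 ± 0.20, adjusted p = 0.605). Among 32 genes of leukocyte adhesion and chemokines 3 were called higher and 5 lower (left-out range 3 to 6 without 349 higher and 3 without 350 or 352 to 5 without 348 or 349 lower, limma voom 2 and 2). Vcam1, which holds leukocytes to inflamed endothelium, was at 0.20 ± 0.16 (adjusted p = 0.468).

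Of 63 tested interferon-stimulated genes 2 were called higher and 3 lower (left-out range 0 to 3 without 349 or 351 higher and 1 to 8 without 349 lower, limma voom 0 and 0), beside 4.65% and 4.94% of all genes, and the median was -0.05. Ifit1 was at 52.4, 48.6 and 40.7 CPM in sham and 31.3, 43.7, 47.7 and 54.8 CPM after TAC (-0.11 ± 0.15, adjusted p = 0.703), and Irf7 at 82.1, 67.6 and 76.9 CPM and 57.7, 65.9, 77.5 and 76.998 CPM (-0.12 ± 0.14, adjusted p = 0.631), both with overlapping libraries. Gbp5 was called lower at 111, 97.6 and 127 CPM and 65.2, 65.2, 71.4 and 101 CPM (-0.56 ± 0.14, adjusted p = 0.0112), with overlapping libraries, and without KO sham 350 its adjusted p was 0.055. Xaf1, called higher, was at 72.6, 52.2 and 68.9 CPM and 46.1, 135, 131 and 124 CPM, with KO TAC 351 below the other 3 TAC libraries (0.76 ± 0.23, adjusted p = 0.0391, DESeq2 adjusted p = 0.0624). Its call was lost without mouse 349, 350, 352, 353 or 354 (0.0567 to 0.127). Of 25 genes of cytosolic DNA sensing 1 was called higher and 1 lower, near the same shares of all genes (left-out range 0 to 2 without 349 higher and 0 to 3 without 349 lower, limma voom 0 and 0). The DNA sensor cGAS, listed as E330016A19Rik, was at 3.35, 8.72 and 15.4 CPM and 10.8, 14.5, 10.4 and 10.4 CPM (adjusted p = 0.478).

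The 10 endothelial markers summed to 14795 to 16032 CPM in KO sham and 13266 to 14024 CPM in KO TAC, without overlap. The 8 smooth muscle markers summed to 448 to 460 CPM in KO sham and 432 to 540 CPM in KO TAC. Leukocyte markers were low. Of 15 macrophage and monocyte markers 6 passed the filter, and none of these was called by edgeR (0 of 6 at an unadjusted p under 0.05, 0 by DESeq2 and 0 by limma voom). The 15 summed to 11.4 to 15.3 CPM in KO sham and 9.51 to 16.9 CPM in KO TAC. No lymphoid marker passed the filter. The 11 pericyte markers summed to 181 to 314 CPM in KO sham and 133 to 181 CPM in KO TAC, with 4 called lower and none higher (left-out range 0 higher and 1 without 352 to 6 without 349 lower, limma voom 0 and 0). Rgs5 was at 97.7, 63.7 and 90.9 CPM and 60.3, 43.3, 58.6 and 50.2 CPM (-0.66 ± 0.14, adjusted p = 0.0047, p348/350 of 0.574). Cardiomyocyte markers summed to 644 to 765 CPM in KO sham and 514 to 604 CPM in KO TAC, without overlap, with 3 of 23 called higher and 4 lower (left-out range 1 without 353 to 4 without 349 higher and 3 to 7 without 351 lower, limma voom 0 and 2). The giant sarcomere protein gene Ttn was at 210.3, 139.8 and 173 CPM and 85.8, 53.4, 71.4 and 86.7 CPM (-1.23 ± 0.14, adjusted p = 3.24e-05) and the adult myosin Myh6 at 33.6, 27.1 and 25.3 CPM and 13.6, 10.4, 7.46 and 7.6998 CPM (-1.54 ± 0.22, adjusted p = 0.000111), both stable. The skeletal actin Acta1, a gene of the hypertrophied heart, was at 0, 0.811 and 0 CPM and 4.94, 9.699, 9.92 and 4.56 CPM (4.41 ± 0.64, adjusted p = 0.000151), with its call lost in limma voom (adjusted p = 0.318) and the same dependence on the prior count. With the mean log2 CPM of the cardiomyocyte markers as a covariate 1315 genes were called, and 1178 of the 1196 calls kept their direction and call. This mean was at 2.965, 3.112 and 2.385 in KO sham and 3.317, 2.86, 2.668 and 2.465 in KO TAC. It overlapped between the surgeries, unlike the sums, so this fit cannot show whether the calls depend on cardiomyocyte RNA.

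The 15 genes with the largest rise under the rule for named genes included Plvap, Bmp2 and Dbp, described above. Ch25h, which makes 25-hydroxycholesterol, was at 1.899, 7.405 and 2.88 CPM in sham and 17.5, 18.9, 22.2 and 16.1 CPM after TAC (2.16 ± 0.47, adjusted p = 0.0059), and the growth factor Igf1 at 13.1, 7.202 and 7.403 CPM and 25.2, 33.9, 39.2 and 15.5 CPM (1.61 ± 0.29, adjusted p = 0.00137). The transcription factor Zbtb16, a target of glucocorticoids, was at 16.3, 18.6 and 34.5 CPM and 43.1, 68.5, 57.8 and 167 CPM (1.897 ± 0.51, adjusted p = 0.0217). Ch25h (p348/350 of 0.243) and Igf1 lost their call in limma voom (adjusted p = 0.0625 and 0.0775), and Zbtb16 without KO TAC 354 (adjusted p = 0.073), its highest library, KO sham 348 (0.0765) or KO sham 349 (0.0538). On the falling side, Cd247, the zeta chain of the T cell receptor complex, was at 19.99, 11.7 and 9.25 CPM and 5.104, 2.89, 1.94 and 4.28 CPM (-1.95 ± 0.33, adjusted p = 0.000727) and the atypical cadherin Cdh23 at 273, 227 and 338 CPM and 112, 89.2, 85.6 and 156 CPM (-1.34 ± 0.15, adjusted p = 3.24e-05). The transcription factor Gata3 was at 5.58, 5.48 and 11.7 CPM and 1.28, 1.31, 0.716 and 1.28 CPM (-2.69 ± 0.40, adjusted p = 0.000179). Groups were separate for these 3 genes, and all 3 were stable.

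Rprl3 (chr8:3803125-3803361, minus strand), annotated as an RNase P RNA-like gene, was detected almost solely in KO sham. It was at 164, 245 and 197 CPM in the 3 KO sham libraries, at 0.159 CPM in KO TAC 351 and listed at 0 in KO TAC 352, 353 and 354. A floor of 3 counts corresponds to 0.239 to 0.428 CPM in the KO TAC libraries. In WT it was listed at 0 in all but 1 TAC library, at 0.0669 CPM. Its near-identical copies Rprl1 and Rprl2 had 0 counts in all libraries, and reads that match several places were not counted, so the reads of these copies cannot be told apart.

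The response in KO was set beside the response in WT. In WT TAC against WT sham 323 of 12471 genes were called (2.59%), 200 higher (1.60%) and 123 lower (0.986%), and the libraries of the 2 surgeries did not overlap for 987 genes that were higher (7.91%) and 837 that were lower (6.71%). In fits of each genotype alone 378 genes were called in KO and 746 in WT, and in limma voom 295 and 1146. Which genotype had more calls therefore depended on the setting. Of the 1196 genes called in KO, 913 had the same sign in WT, 133 were called in both in the same direction and 2 in opposite directions. Genes with the same sign in KO and WT were not counted over all 12471 tested, so the 913 have no background share. The difference of the TAC effects, KO minus WT, passed an adjusted p of 0.05 for 86 genes (0.690%), 25 with a more positive effect in KO (0.200%) and 61 with a more negative one (0.489%). Without KO sham 348 and 350 together 2 genes passed, both among the 86, and without KO sham 349 764 did. Leaving out KO TAC 351, 352 or 353 left 52, 41 and 38 calls, and leaving out single WT libraries 24 (WT sham 133) to 163 (WT TAC 135). The WT count itself fell to between 108 (WT sham 131) and 214 (WT TAC 136) without any single WT library other than WT TAC 135, and rose to 548 without KO sham 350.

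None of the 22 basement membrane genes passed this test (5 of 22 at an unadjusted p under 0.05, 0 by DESeq2 and 0 by limma voom), and Col15a1 changed by 1.68 ± 0.20 in WT (adjusted p = 5.28e-05) beside 1.602 ± 0.20 in KO. The difference was -0.08 ± 0.26 (adjusted p = 0.926). Edn1 was -1.38 ± 0.17 in WT, with a difference of 0.08 ± 0.25 (adjusted p = 0.918). Among the capillary genes 4 of 28 were called, all more negative in KO, beside 0.489% of all genes tested. In WT, Car4 averaged 179.8 ± 33.9 CPM after sham surgery (mean ± SD, as for all WT levels here, n = 3) and 163 ± 24.9 CPM after TAC (n = 5, -0.11 ± 0.15, adjusted p = 0.838), and the difference was -1.31 ± 0.22 (adjusted p = 0.0117). Cd36, Aqp1 and Lipe had differences of -0.64 ± 0.14, -1.41 ± 0.28 and -0.72 ± 0.15 (adjusted p = 0.0321, 0.0212 and 0.0321).

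Endothelial receptors and contact molecules made up further calls of the difference. Tek averaged 794 ± 17.2 CPM and 762 ± 28.1 CPM in the WT groups, and its difference was -0.56 ± 0.10 (adjusted p = 0.0138). Kdr and Tie1 differed by -0.45 ± 0.10 and -0.51 ± 0.11 (adjusted p = 0.0339 and 0.0339). Efna1 and Jam2 had the smallest p of the 86, with -1.13 ± 0.16 and -0.85 ± 0.12 (adjusted p = 0.00385 and 0.00385). In WT, Efna1 was at 186 ± 15.2 CPM and 213 ± 22.7 CPM and Jam2 at 1071 ± 85.9 CPM and 1208 ± 67.4 CPM. The chemokine receptor Cxcr4 was at 112, 95.05 and 87.6 CPM and 62.1, 70.9, 61.2 and 44.2 CPM in KO (-0.72 ± 0.17) and at 122 ± 18.9 CPM and 183 ± 42.1 CPM in WT (0.56 ± 0.17), with a difference of -1.28 ± 0.24 (adjusted p = 0.0153). Its KO call was lost in limma voom (adjusted p = 0.125) and had a p348/350 of 0.194. The neonatal Fc receptor Fcgrt, which recycles IgG and albumin, was at 112, 99.1 and 102 CPM and 72.7, 65.4, 61.1 and 75.3 CPM in KO (-0.61 ± 0.09, stable) and at 139.9 ± 6.54 CPM and 161 ± 11.1 CPM in WT, with a difference of -0.82 ± 0.12 (adjusted p = 0.00481). The cofilin phosphatase Ssh2 was at -0.54 ± 0.08 in KO (stable) and 0.21 ± 0.08 in WT (-0.75 ± 0.11, adjusted p = 0.00481).

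Xdh, Fmo1, a flavin monooxygenase, and Ahr were called in KO and not in WT, and their differences were -1.06 ± 0.19, -0.66 ± 0.11 and -0.81 ± 0.15 (adjusted p = 0.0138, 0.0113 and 0.0174). Of the p53 targets, 4 of 39 were called in the difference, all more positive in KO, beside 0.200% of all genes tested. They were Gdf15 (1.75 ± 0.40), Mdm2 (0.80 ± 0.14), Ercc5 (0.70 ± 0.16) and Phlda3 (0.57 ± 0.13), with adjusted p = 0.0437, 0.0138, 0.0467 and 0.0488. Azin1, which stabilises ornithine decarboxylase, was at 153, 142 and 99.1 CPM and 219, 239, 265 and 240.3 CPM in KO (0.87 ± 0.12, stable) and did not pass in WT (-0.02 ± 0.11, adjusted p = 0.964), with a difference of 0.89 ± 0.16 (adjusted p = 0.0138). No member of the clock (6 of 21 at an unadjusted p under 0.05, 2 by DESeq2 and 0 by limma voom), mitosis (1 of 35 at an unadjusted p under 0.05, 0 by DESeq2 and 0 by limma voom), interferon-stimulated (12 of 63 at an unadjusted p under 0.05, 2 by DESeq2 and 0 by limma voom) or interstitial matrix list (13 of 36 at an unadjusted p under 0.05, 2 by DESeq2 and 0 by limma voom) passed edgeR's test of the difference. The difference has a value in 24 settings, the fit as reported included. Its call held in 23 for Fmo1, Mdm2, Azin1, Fcgrt, Car4, Efna1, Jam2, Tek and Ssh2, in 22 for Xdh, in 21 for Ahr and Cxcr4 and in 18 for Aqp1. It held in 13 for Cd36, in 12 for Kdr, Tie1 and Lipe, in 9 for Gdf15 and Ercc5 and in 8 for Phlda3. All of these calls were lost without KO sham 348 and 350 together, a fit that leaves 1 sham library.

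**Figure D5:**
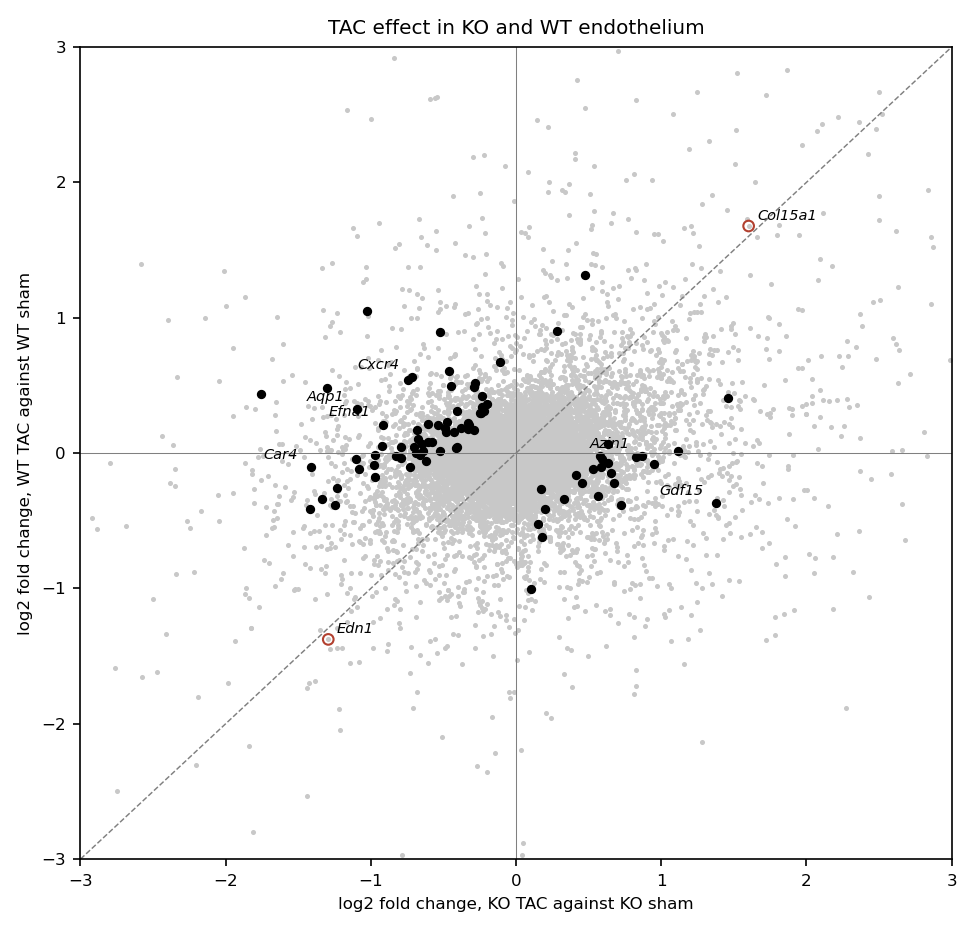
Log2 fold change of TAC against sham in KO (horizontal axis) and in WT (vertical axis) for the 12471 genes tested (grey; values beyond the axes are left out), with 85 of the 86 genes called in the difference in black, 6 of them labelled, and 1 beyond the axes. Car4, Efna1 and Aqp1 lie to the left of 0 in KO and close to 0 or above it in WT, while Col15a1 and Edn1, not called in the difference, are shown as open circles near the line of equal change.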

How the data were processed

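Gene counts were deposited by the authors as 1 table of whole-number counts for 15 libraries. The submitters' processing notes name HISAT2 2.1.0 and the build mm10, and per the file headers reads were counted with featureCounts 1.6.2 as reverse-stranded reads (setting 2), without multi-mapping or overlapping assignments, so near-identical genes lose reads. RNA was made into TruSeq libraries, per the labels' protocols. Of 23337 genes, 12471 passed edgeR's filterByExpr (10 counts, 15 in total). edgeR 4.0.16 (R 4.3.3) fitted all 4 groups together with TMM scaling and the quasi-likelihood test, with Benjamini-Hochberg adjustment at 0.05, since all groups inform the spread. CPM are counts scaled to 1000000 per TMM-scaled library. DESeq2 1.42.0 and limma 3.58.1 were alternatives. The steps were tested on simulated data. KO totals of 4801095 to 12200965 counts and WT totals of 1362346 (WT sham 133) to 15670319 counts limit low genes, and a floor of 3 counts covers counting error only. No pair of libraries agreed within sampling noise.

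The comparison, gene lists and promoters were chosen with earlier results of these data known. The genes named are members of the lists, the 15 largest changes in each direction with at least 5 CPM and no overlap, the 15 smallest p of the difference and the 10 most abundant calls in each direction. A gene the rule names is not reported here. Further stable genes were chosen after their values were seen. Date-like symbols (25 genes) were left unnamed.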

Additional observations from a re-analysis of the deposited data

Results flagged for a closer look

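In 8 of the 100 groups of 4 or 5 TAC libraries whose levels are printed, 1 library lay far from the others by Dixon's ratio, and chance flags about 1 in 20. Apln was lowest in KO TAC 354 at 457.6 CPM. Ccnd1 was highest in KO TAC 352 at 1323 CPM, and the gene of cGAS, E330016A19Rik, at 14.5 CPM in the same library. Fscn1 at 513.7 CPM and Gata3 at 0.716 CPM were lowest in KO TAC 353. Gbp5 was highest (101.4 CPM) and Phlda3 lowest (102.8 CPM) in KO TAC 354, and Xaf1 lowest in KO TAC 351 at 46.1 CPM.

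The TAC effect differed between KO and WT by the test of the difference itself for 27 genes named in the text. The effect was more negative in KO, on the log2 scale, by -0.80 for Adora2a, -0.81 for Ahr, -1.41 for Aqp1, -1.31 for Car4, -0.64 for Cd36, -0.996 for Cdh23, -1.28 for Cxcr4, -0.84 for Ednrb, -1.13 for Efna1, -0.82 for Fcgrt, -0.66 for Fmo1, -0.85 for Jam2, -0.45 for Kdr, -0.72 for Lipe, -0.67 for Sema6a, -0.75 for Ssh2, -0.56 for Tek, -0.51 for Tie1, -0.45 for Tjp1, -0.97 for Ttn and -1.06 for Xdh. It was more positive by 0.89 for Azin1, 0.70 for Ercc5, 1.1004 for Fasn, 1.75 for Gdf15, 0.80 for Mdm2 and 0.57 for Phlda3.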

How the results depend on the processing

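No paired analysis was possible because the mouse numbers are not shared between the groups. Against 1196 calls in KO, 378 passed in the fit of the KO libraries alone, 295 in limma voom, 188 without KO sham 348 and 350 together and 41 against a fold of 1.5, and leaving out 1 library gave 703 to 2338. Against 323 calls in WT, DESeq2 gave 507, the WT libraries alone 746, limma voom 1146, leaving out KO sham 348 and 350 721, the cardiomyocyte covariate 82 and a fold of 1.5 19, and leaving out 1 library gave 108 to 548. Against 86 calls of the difference, DESeq2 gave 317, no low-count filter 174, the covariate 157, leaving out KO sham 348 and 350 2 and a fold of 1.5 0 (335 at an unadjusted p under 0.05), and leaving out 1 library gave 24 to 764. The cause of these shifts was not tested. Other alternatives stayed within 1.5 times. For the single genes named, 3934 values kept their side of the threshold, 506 fell short of it and 31 passed it newly, all without a called direction turning. Tmem173 kept its side in every alternative. Depth limits genes near the floor of 0.239 to 0.428 CPM in KO TAC.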

Other observations

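Of 23 genes of coagulation and fibrinolysis 4 were called higher and 1 lower in KO TAC against KO sham (left-out range 3 without 352 or 353 to 5 without 349 higher and 1 to 4 without 348 lower, limma voom 1 and 1). S100a10 and Anxa2, whose products form a complex that binds plasminogen, were at 70.1, 86.2 and 70.9 CPM and 379, 310.3 and 297 CPM in sham and 98.004, 122, 103 and 114 CPM and 402, 463, 419 and 375 CPM after TAC (0.52 ± 0.10 and 0.33 ± 0.09, edgeR adjusted p = 0.0024 and 0.023). Of 27 YAP targets 6 were called higher and 2 lower (left-out range 2 without 352 to 6 without 349 higher and 2 to 5 without 349 lower, limma voom 1 and 2). Ankrd1, a YAP target that cardiomyocytes also express, was at 1.899, 2.13 and 0 CPM and 6.38, 6.62, 5.52 and 2.99 CPM (1.85 ± 0.53, adjusted p = 0.0302), and the YAP partner Wwtr1 (TAZ) at 414, 413 and 384 CPM and 462, 505, 498 and 453 CPM (0.25 ± 0.08, adjusted p = 0.0402). Of 39 genes of the integrated stress response 3 were called higher (left-out range 0 without 352 or 353 to 6 without 349 higher and 0 to 1 lower, limma voom 0 and 0), among them Mthfd2, an enzyme of mitochondrial folate metabolism, at 1.899, 2.74 and 1.85 CPM and 5.74, 6.16, 5.42 and 8.13 CPM (1.53 ± 0.43, adjusted p = 0.0297). The p348/350 values of S100a10, Anxa2, Ankrd1, Wwtr1 and Mthfd2 were 0.243, 0.0805, 0.323, 0.402 and 0.324. Leaving out single KO libraries ended 4 of these 5 calls: Anxa2 without mouse 349, 350, 352 or 353 (adjusted p = 0.0534 to 0.0873), Ankrd1 without mouse 350, 351, 352 or 353 (0.0566 to 0.0779), Wwtr1 without mouse 348, 350, 351, 352 or 353 (0.0518 to 0.112) and Mthfd2 without KO sham 348 or any KO TAC library (0.0512 to 0.0765).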
